A study of Homo sapiens with 6 samples.

Results

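RNA polymerase II is the enzyme that transcribes protein-coding genes, and its subunits are encoded by the POLR2 gene family. The 10 genes described here, POLR2A, POLR2B, POLR2C, POLR2D, POLR2E, POLR2F, POLR2G, POLR2H, POLR2I and POLR2L, were taken from the 58174 Ensembl genes of the deposited tables by matching gene ID to symbol, and all 10 were found. They fall into 2 large catalytic subunits, POLR2A and POLR2B, and 8 small ones. The libraries come from LN-229, an established human glioblastoma cell line, and hold nuclear-enriched RNA depleted of ribosomal RNA. Of the 6 libraries, 3 carry the label sh-JMJD1C, read here as knockdown of the histone demethylase JMJD1C by a hairpin RNA, and 3 are labelled control-NC. The labels give no dose, time or clone. They do not say that replicate libraries were grown separately, and the p-values then measure only the spread of these libraries, which may be technical. With bulk RNA, fewer cells with a transcript and less of it per cell cannot be told apart.

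In the enzyme, POLR2A and POLR2B form the cleft in which RNA is made, and POLR2A carries the repeated C-terminal domain whose phosphorylation marks the stages of transcription. POLR2C belongs to the platform on which the enzyme assembles, POLR2D and POLR2G form a stalk beside the RNA exit, and POLR2I lies at the jaw and bears on transcription fidelity. POLR2E, POLR2F, POLR2H and POLR2L are shared with RNA polymerases I and III, and each subunit is present in a single copy per enzyme.

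The libraries held 1676755, 1919675 and 1660561 reads in sh-JMJD1C 1 to 3 and 544442, 2004255 and 2960454 reads in control 1 to 3, as recovered from the FPKM values of the authors. JMJD1C itself had 43.1, 10.97 and 28.1 scaled RPM (reads relative to library size after scaling between libraries) in sh-JMJD1C 1 to 3, against 168, 93.1 and 171 in control 1 to 3, with no overlap between the groups. Its log2 fold change was -1.82 on scaled FPKM, where limma gave an adjusted p of 0.118 (SE 0.41), and -2.49 on reads, where limma-voom gave an adjusted p of 0.0253 (SE 0.51) that missed the threshold without control 1, control 3, sh-JMJD1C 2 or sh-JMJD1C 3 (0.0634 to 0.117). Several libraries stand apart. Control 1 is the shallowest, and 25.0% of its reads fell on a single non-coding gene, ENSG00000281181, against 1.32% or less in every other library. RN7SL genes, which encode the signal recognition particle RNA, held 1.18%, 15.7% and 18.5% of reads in sh-JMJD1C 1 to 3 and 0.378% to 1.77% in the controls, while the nuclear-retained MALAT1 took 0.0915% to 0.292% in the sh-JMJD1C libraries and 1.25% to 2.40% in the controls. Mitochondrial genes took 12.6%, 1.33% and 1.70% in sh-JMJD1C 1 to 3 and 2.93% to 8.70% in the controls. Of 8 glioma and astroglial markers, VIM, CD44 and EGFR were abundant, and the list summed to 2139.6, 1178 and 1242 scaled RPM in sh-JMJD1C 1 to 3 and 2051 to 2192 in the controls, with EGFR averaging 439.9 in sh-JMJD1C and 1136 in control. NES had at most 20 reads, GFAP at most 6 and SOX2 at most 1 in any library, and OLIG2 and S100B had 0 reads. The 4 epithelial markers summed to 3209 to 7129 scaled RPM in the sh-JMJD1C libraries and 601 to 1177 in the controls, nearly all of it KRT8 and KRT18, with EPCAM at 0 reads in the sh-JMJD1C libraries and 0 to 11 reads in the controls. The part of these differences in the results below was not tested.

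The question asked of the subunits was whether the large catalytic and the small ones differ between sh-JMJD1C and control cells. They did not split cleanly by size. Among the small subunits, 6 of 8 (POLR2C, POLR2E, POLR2G, POLR2H, POLR2I and POLR2L) had all sh-JMJD1C libraries above all control libraries, POLR2D averaged 70.1 ± 7.20 scaled RPM in sh-JMJD1C and 63.5 ± 5.32 in control with overlapping groups (SD, n = 3 each), and POLR2F was listed at 0 almost throughout. The catalytic subunits went opposite ways in their means: POLR2A was higher on average, with a single sh-JMJD1C library far above the rest, and POLR2B was lower on average, with overlapping groups for both. In limma on scaled FPKM, 0 of the 9 tested subunit genes passed an adjusted p of 0.05 (6 had an unadjusted p under 0.05), where 34 of 18383 genes passed (0.185%, and 0.0598% higher) and 3658 had an unadjusted p under 0.05. In limma-voom on recovered reads, 3 of 9 passed, all higher, namely POLR2E, POLR2G and POLR2L, where 5.52% of 11877 genes passed in either direction and 3.71% passed higher. The median log2 fold change of the 9 genes was 1.18 on scaled FPKM, beside -0.16 over all tested genes, and 1.29 on reads, beside -0.08. Groups that do not overlap with sh-JMJD1C higher, as in those 6 genes, were found in 12.2% of all tested genes on scaled FPKM and in 17.3% on scaled reads; 0 of the 10 lay wholly lower, against 14.5% and 17.2%. On FPKM as deposited, without scaling, the groups of POLR2H overlap and 5 of 10 lay apart and higher, against 7.44% of tested genes. POLR2B lay wholly lower on that measure, by a narrow margin. The share of all genes wholly lower on deposited FPKM was not counted, and their median log2 fold change there was -0.38.

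**Figure D1:**
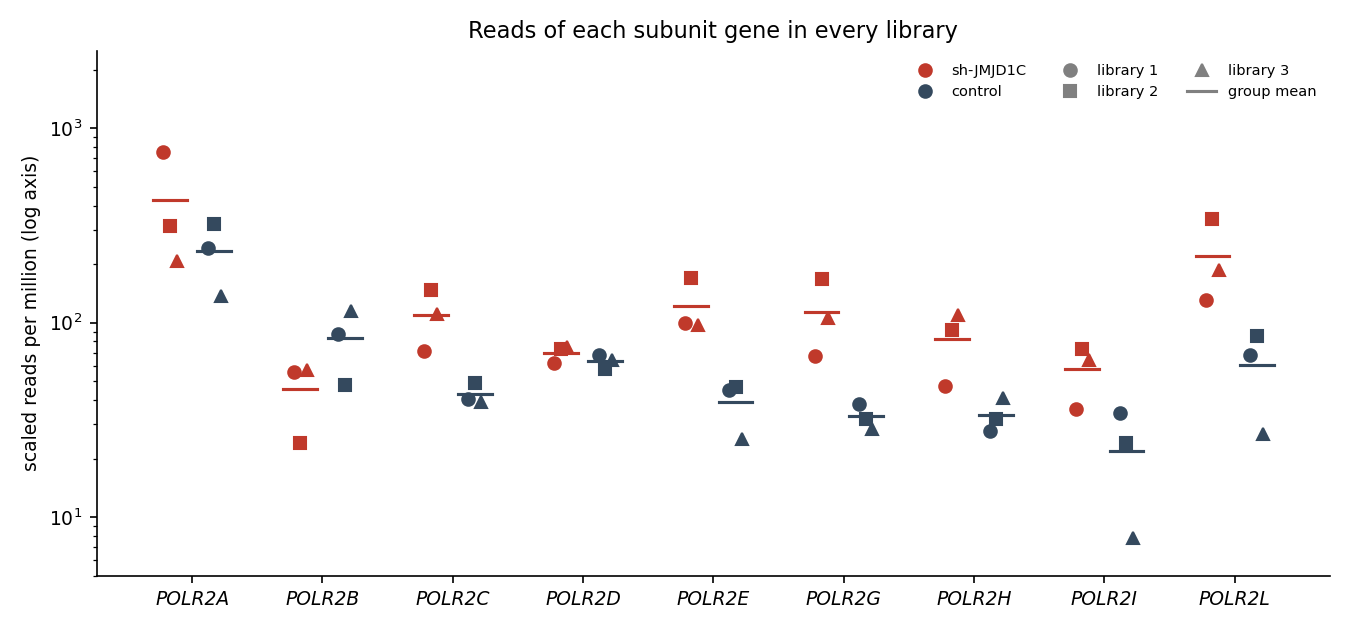
Scaled RPM (log axis) of 9 subunit genes in each library, sh-JMJD1C in red and control in dark blue, with the library number as the marker and the group mean as a line. POLR2F is left out because it had 1 read in all. For POLR2C, POLR2E, POLR2G, POLR2H, POLR2I and POLR2L every sh-JMJD1C library lies above every control library, and the groups of POLR2A, POLR2B and POLR2D overlap.

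The promoters of 3 subunit genes are printed because these genes differ in their values below: POLR2A and POLR2B are the catalytic pair, and POLR2E is among the small subunits that passed on reads. Each sequence runs 5′ to 3′ from 250 bases before to 50 bases after the start given by RefSeq (GRCh38.p14). Capitals mark matches on either strand to GGGCGG, the core of Sp1 sites, and to the core of NRF1-type sites, GCGCA and GCGC with 1 base of any kind between them, which were chosen after the sequences were seen. The POLR2A promoter lies at chr17:7484116-7484415 (plus strand), that of POLR2B at chr4:56978646-56978945 (plus strand, at a RefSeq start inside the annotated gene) and that of POLR2E at chr19:1095326-1095625 (minus strand).
POLR2A: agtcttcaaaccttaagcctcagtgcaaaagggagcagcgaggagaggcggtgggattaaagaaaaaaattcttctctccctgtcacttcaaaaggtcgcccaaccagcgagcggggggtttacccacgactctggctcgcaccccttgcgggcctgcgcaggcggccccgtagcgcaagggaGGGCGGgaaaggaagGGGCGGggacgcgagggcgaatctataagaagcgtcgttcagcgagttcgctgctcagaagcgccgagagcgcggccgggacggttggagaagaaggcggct
POLR2B: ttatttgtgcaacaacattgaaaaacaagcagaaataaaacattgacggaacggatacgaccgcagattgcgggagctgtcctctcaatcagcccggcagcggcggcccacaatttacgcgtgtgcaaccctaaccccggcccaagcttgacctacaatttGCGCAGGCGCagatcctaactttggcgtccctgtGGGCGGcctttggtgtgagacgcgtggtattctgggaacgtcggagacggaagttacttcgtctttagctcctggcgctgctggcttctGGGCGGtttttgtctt
POLR2E: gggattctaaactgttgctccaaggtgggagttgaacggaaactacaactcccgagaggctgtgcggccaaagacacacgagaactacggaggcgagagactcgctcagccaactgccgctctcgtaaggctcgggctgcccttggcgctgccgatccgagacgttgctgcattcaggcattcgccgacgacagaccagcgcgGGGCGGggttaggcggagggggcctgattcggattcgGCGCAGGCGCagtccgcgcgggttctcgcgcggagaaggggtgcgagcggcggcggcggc
Of the 10 genes, 8 had a promoter in the table, with several starts for POLR2F and POLR2H. A gene was counted if any of its starts had a match, while the shares given beside the counts are over single promoters. GGGCGG was found in 6 of these 8 genes, against 45.0% of all 35116 promoters in the table. The NRF1-type motif was found in 4 of 8 (POLR2B, POLR2E, POLR2F and POLR2H), against 5.78% of all promoters. CCGGAAG, the core of ETS sites, was found in POLR2C, POLR2D and POLR2F, against 10.3% of all promoters. TATAAA and CCAAT were found in 0 of 8, against 11.5% and 34.6%. The NRF1-type letters occur in POLR2B, which did not pass in either fit, and in POLR2E, which passed on reads. A link between these motifs and the levels was not tested.

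POLR2A (ENSG00000181222, hg38 chromosome 17, 7484366 to 7514616, plus strand) encodes the largest catalytic subunit. It had 1326, 460 and 296 reads in sh-JMJD1C 1 to 3, or 753, 315 and 208 scaled RPM, and 113, 791 and 564 reads in control 1 to 3, or 241, 322 and 138 scaled RPM. The sh-JMJD1C 1 library was the one high value, and the other sh-JMJD1C libraries lay within the range of the controls. The mean was 425 ± 289 scaled RPM in sh-JMJD1C and 233 ± 92.1 in control (SD, n = 3 each). The log2 fold change was 0.67 (SE 0.57, adjusted p = 0.529) in limma on scaled FPKM, with 0.16 without sh-JMJD1C 1 and 0.32 without control 3, the lowest library. Of the 9 annotated transcripts of POLR2A, 7 are typed as retained introns, and reads on them are included in these values. The same holds for POLR2B (5 of 13 transcripts), POLR2C (5 of 8), POLR2E (4 of 14), POLR2G (2 of 8), POLR2H (4 of 13) and POLR2I (3 of 7).

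POLR2B (ENSG00000047315, chromosome 4, 56977722 to 57031168, plus strand), the other catalytic subunit, had 98, 35 and 81 reads in sh-JMJD1C 1 to 3 and 41, 118 and 468 reads in control 1 to 3. Scaled, it had 55.6, 24.0 and 56.9 RPM in the sh-JMJD1C libraries and 87.4, 48.0 and 114 in the controls. The groups overlapped, because control 2 lay below 2 of the sh-JMJD1C libraries, and sh-JMJD1C 2 was the lowest library of all. On FPKM as deposited the groups of POLR2B did not overlap, narrowly, with 2.30, 0.716 and 1.92 in sh-JMJD1C 1 to 3 and 2.96, 2.31 and 6.21 in control 1 to 3. On that unscaled measure the median log2 fold change of all tested genes was -0.38. The mean of POLR2B was 45.5 ± 18.6 scaled RPM in sh-JMJD1C and 83.3 ± 33.4 in control. The log2 fold change was -0.76 (SE 0.44, adjusted p = 0.362) in limma on scaled FPKM and -0.86 (SE 0.48, adjusted p = 0.234) in limma-voom on reads. It was -0.41 on scaled FPKM without sh-JMJD1C 2 and -1.06 without control 2. Its sign was negative in every one of the 28 settings run, between -1.27 and -0.23, and that of POLR2A was positive in all of them, between 0.14 and 1.32. These settings refit the same libraries, so a shared sign is not independent evidence of direction.

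POLR2C (ENSG00000102978, chromosome 16, 57462387 to 57472010), the platform subunit, had 71.5, 147 and 111 scaled RPM in sh-JMJD1C 1 to 3 and 40.5, 48.8 and 38.9 in control 1 to 3. The controls lay close together and all sh-JMJD1C libraries were above them, sh-JMJD1C 1 least so. Its log2 fold change was 1.18 (SE 0.36, adjusted p = 0.168) in limma on scaled FPKM and 1.29 (SE 0.39, adjusted p = 0.0647) in limma-voom on reads, which is not past the threshold.

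The stalk subunits POLR2D and POLR2G, which bind each other in the enzyme, differed from one another. POLR2G (ENSG00000168002, chromosome 11, 62761544 to 62766710) had 67.6, 168 and 105 scaled RPM in sh-JMJD1C 1 to 3 and 38.4, 32.1 and 28.3 in control 1 to 3. The groups were apart by a wide margin, and POLR2G rose 3.33-fold on reads (log2 1.73, SE 0.43, adjusted p = 0.0406 in limma-voom). POLR2D (ENSG00000144231, chromosome 2, 127843551 to 127858157) had 61.9, 73.4 and 75.1 scaled RPM in sh-JMJD1C 1 to 3 and 68.2, 57.7 and 64.5 in control 1 to 3. All 6 libraries of POLR2D lay within this narrow range, and its log2 fold change was 0.08 (SE 0.30, adjusted p = 0.891) in limma on scaled FPKM, with a sign that turned negative for FPKM as deposited (-0.21), after quantile normalization (-0.11) and with reads scaled to library totals (-0.25).

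The ratio of POLR2G to POLR2D reads within a library does not depend on the scaling between libraries. It was 1.09, 2.29 and 1.40 in sh-JMJD1C 1 to 3 and 0.563, 0.556 and 0.439 in control 1 to 3, so POLR2D had more reads than POLR2G in every control and fewer in every sh-JMJD1C library. The difference was 1.56 on the log2 scale, 2.94-fold, with an exact two-sided permutation p of 0.10, the smallest that 3 libraries against 3 allow, and 0.20 when adjusted over the 3 pairs of subunits compared. The genes differ in transcript length, and the difference between their log2 fold changes on reads, 1.58, was 0.55 with the trend over length removed and 0.20 with the GC trend removed as well. The POLR2A to POLR2B ratio was 13.5, 13.1 and 3.65 in sh-JMJD1C 1 to 3 and 2.76, 6.70 and 1.21 in control 1 to 3, which overlap (exact permutation p = 0.20, adjusted p = 0.20). The POLR2L to POLR2C ratio was 1.83, 2.34 and 1.69 in sh-JMJD1C 1 to 3 and 1.68, 1.76 and 0.686 in control 1 to 3, which overlap as well (exact permutation p = 0.20, adjusted p = 0.20). With length and GC trends removed, the log2 fold changes of POLR2L and POLR2C differed by -0.04, against 0.68 on reads, and those of POLR2A and POLR2B by 1.09, against 1.58. The ratios were not among the planned tests. The 3 pairs were picked from all possible pairs of subunit genes, and the adjustment does not cover that choice.

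Of the shared subunits among the 10 genes, POLR2E, POLR2H and POLR2L were each higher in all sh-JMJD1C libraries, and POLR2F was not tested. POLR2K, a shared subunit outside these 10 genes, was not (log2 fold change on reads -0.19, adjusted p = 0.919 in limma-voom). POLR2E (ENSG00000099817, chromosome 19, 1086579 to 1095380), a subunit of the jaw, had 99.3, 169 and 96.9 scaled RPM in sh-JMJD1C 1 to 3 and 44.8, 46.8 and 25.2 in control 1 to 3. Even the lowest sh-JMJD1C library lay above the highest control by a wide margin, and POLR2E rose 3.24-fold on reads (log2 1.70, SE 0.42, adjusted p = 0.0406 in limma-voom). POLR2L (ENSG00000177700, chromosome 11, 837356 to 842545), a small zinc-binding subunit needed for assembly, had 131, 343 and 188 scaled RPM in sh-JMJD1C 1 to 3 and 68.2, 85.8 and 26.6 in control 1 to 3. Control 3 was low and sh-JMJD1C 2 was high, and POLR2L rose 3.92-fold on reads (log2 1.97, SE 0.52, adjusted p = 0.0487 in limma-voom), with a log2 fold change of 1.28 without control 3. POLR2H (ENSG00000163882, chromosome 3, 184361718 to 184368596) had 47.1, 91.9 and 109.6 scaled RPM in sh-JMJD1C 1 to 3 and 27.7, 32.1 and 40.8 in control 1 to 3. Its groups came close to each other, between sh-JMJD1C 1 and control 3, and its log2 fold change on reads was 1.16 (SE 0.43, adjusted p = 0.0991 in limma-voom).

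POLR2I (ENSG00000105258, chromosome 19, 36113710 to 36115346), which lies at the jaw as well, had 35.8, 73.4 and 63.9 scaled RPM in sh-JMJD1C 1 to 3 and 34.1, 24.0 and 7.82 in control 1 to 3. The groups barely separated, since sh-JMJD1C 1 and control 1 were nearly equal, and the log2 fold change on reads was 1.83 (SE 0.54, adjusted p = 0.0617 in limma-voom). It was 0.91 without control 3, the lowest library. Control 1 held 16 reads, where the unscaled level of 29.4 RPM had an exact (Clopper-Pearson) 95% interval of 16.8 to 47.7, which covers counting error only. POLR2F (ENSG00000100142, chromosome 22, 37952607 to 38041915), a shared subunit that every cell uses, was listed at 0 in all libraries but control 3, where it had 1 read. It was tested in neither fit, and the values of POLR2F are therefore given as listed and not as absence of the transcript.

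For each of POLR2C, POLR2E, POLR2G, POLR2H, POLR2I and POLR2L, the exact permutation test of log2 scaled FPKM gave p = 0.10, the smallest possible, and it gave 0.30 for POLR2B and 0.50 for POLR2A and for POLR2D. In limma on scaled FPKM restricted to protein-coding genes, POLR2G (adjusted p = 0.0360) and POLR2E (adjusted p = 0.0410) passed, where 8.96% of 10169 genes passed and 5.34% passed higher. The calls on reads of POLR2E, POLR2G and POLR2L held without control 2 or sh-JMJD1C 1 and were lost without control 1, control 3, sh-JMJD1C 2 or sh-JMJD1C 3, with adjusted p from 0.0158 to 0.178 for POLR2E, 0.00572 to 0.164 for POLR2G and 0.0145 to 0.195 for POLR2L over the 6 removals. Without both libraries numbered 1, POLR2G alone passed on reads (log2 2.15, limma-voom adjusted p = 0.0309), where 7.54% of genes passed and 6.65% passed higher. With reads scaled to library totals 0 of 9 passed in limma-voom (POLR2L was nearest, adjusted p = 0.0502), where 1195 of 11877 genes passed, 311 of them higher. The direction of these 3 genes was positive in every setting run, all of which refit the same libraries.

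**Figure D2:**
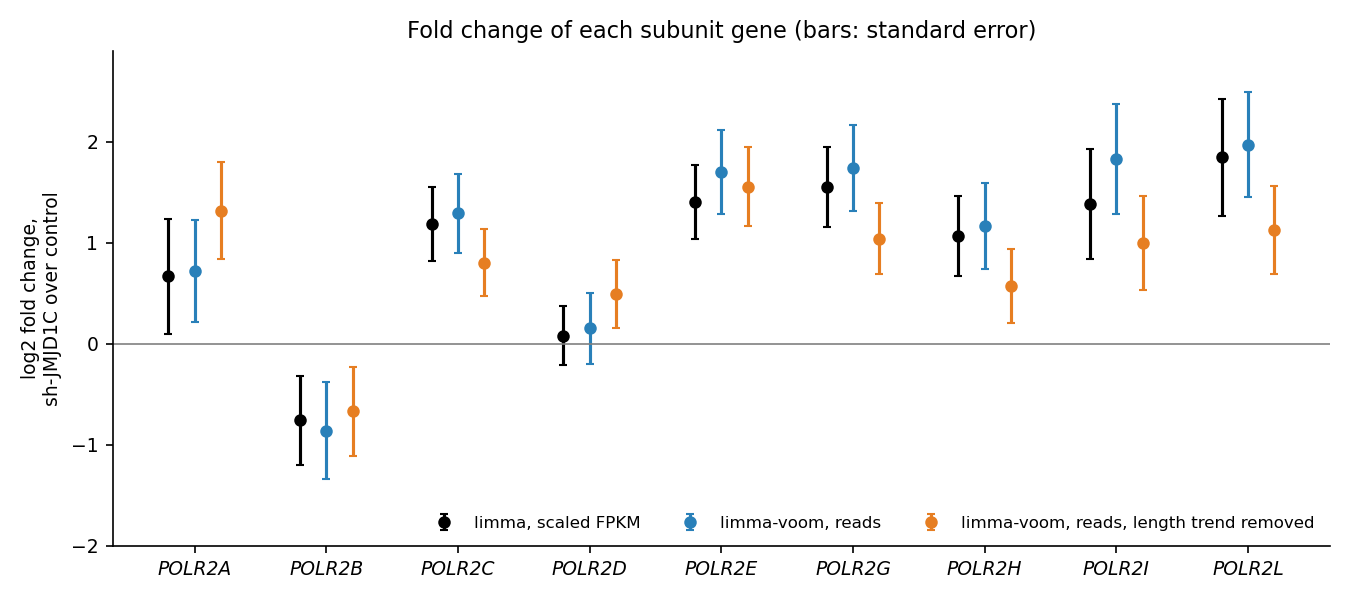
Log2 fold change of 9 subunit genes, sh-JMJD1C over control, from limma on scaled FPKM (black), limma-voom on reads (blue) and limma-voom on reads with the trend over transcript length removed (orange), with bars for the standard error. POLR2B lies below 0 in all 3 fits. On reads, removing the length trend lowers POLR2C, POLR2E, POLR2G, POLR2H, POLR2I and POLR2L and raises POLR2A, POLR2B and POLR2D.

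Over all tested genes, the fold change on reads declined with transcript length, and the small subunits other than POLR2D have shorter transcripts than the large ones. The longest annotated transcript is 892 nucleotides for POLR2L, 993 for POLR2I, 1556 for POLR2G, 1802 for POLR2H, 2057 for POLR2C, 2106 for POLR2F and 2831 for POLR2E, against 5042 for POLR2D, 4108 for POLR2B and 6751 for POLR2A. A lowess trend over all 11877 genes gave a log2 difference between sh-JMJD1C and control of 0.84 at the length of POLR2L, 0.82 at that of POLR2I, 0.69 at that of POLR2G, 0.60 at that of POLR2H, 0.49 at that of POLR2C, 0.14 at that of POLR2E, -0.19 at that of POLR2B, -0.34 at that of POLR2D and -0.60 at that of POLR2A. The 6 small subunits with higher levels thus lie where genes of like length were also higher. With the trend removed from each library, POLR2E had a log2 fold change of 1.55 and limma-voom gave an adjusted p of 0.0502 (SE 0.39), just short of the threshold. POLR2G was at 1.04 (adjusted p = 0.0989), POLR2L at 1.12 (adjusted p = 0.135), and POLR2A moved to 1.32 (SE 0.48, adjusted p = 0.118). In that fit 0 of the 9 passed, where 3.42% of genes passed and 2.34% passed higher. An unadjusted p under 0.05 was found for 5 of the 9 and for 3111 of all 11877 genes. Of the small subunits, POLR2E lay farthest above the trend. With the GC trend removed as well, the log2 fold change was 1.04 for POLR2E, 0.89 for POLR2G, 0.69 for POLR2D, 0.64 for POLR2C, 0.60 for POLR2L, 0.46 for POLR2I and 0.04 for POLR2H. There 0 of 9 passed in limma-voom, where 801 of 11877 genes passed. An unadjusted p under 0.05 was found for 4 of the 9 and for 3200 of all genes.

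**Figure D3:**
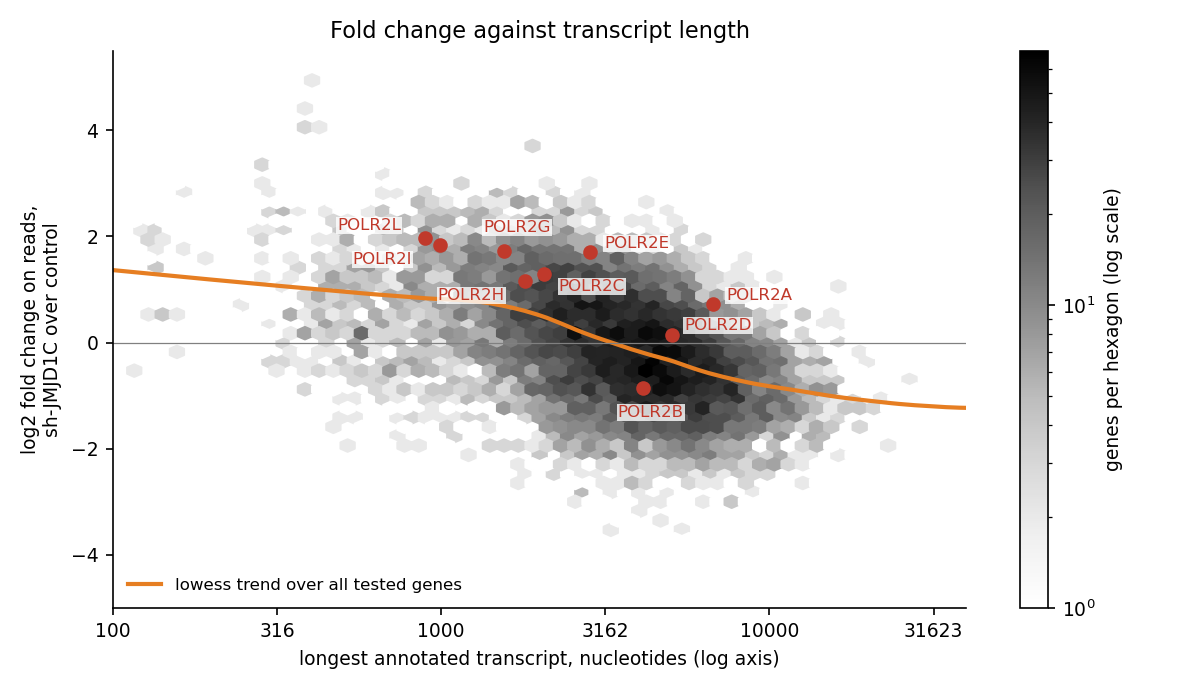
Log2 fold change on reads, sh-JMJD1C over control, against the longest annotated transcript (log axis) for all 11877 tested genes as shaded hexagons, with their lowess trend in orange and the subunit genes in red. POLR2B lies below the trend line and the other 8 lie above it; with the trend removed POLR2E is at 1.55 and POLR2H at 0.57.

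The contrast of large against small subunits was taken within each library, as the mean log2 level of POLR2A and POLR2B minus that of the 8 small ones, on scaled FPKM. It was 0.79, -1.09 and -0.60 in sh-JMJD1C 1 to 3 and 0.76, 0.62 and 1.04 in control 1 to 3. The sh-JMJD1C 1 library lay among the controls and the other sh-JMJD1C libraries lay below them. The mean was -0.30 ± 0.97 in sh-JMJD1C and 0.81 ± 0.21 in control (SD, n = 3 each), a difference of -1.11 on the log2 scale, which was -1.65 without sh-JMJD1C 1 and -0.71 without sh-JMJD1C 2. POLR2F, listed at 0 almost throughout, is among the 8 and lowers the mean of the small subunits in every library. Without POLR2F the difference was -1.26. The mean log2 level of the small subunits was 3.29 ± 0.38 in sh-JMJD1C and 2.23 ± 0.24 in control, and that of the large pair was 2.99 ± 0.60 in sh-JMJD1C and 3.04 ± 0.08 in control. On scaled FPKM the large pair thus differed by -0.05 and the small subunits by 1.06, while POLR2A and POLR2B offset each other. How the contrast divides between large and small subunits depends on the scaling between libraries. On reads, POLR2A and POLR2B were at 0.37 and -1.27 with library totals, and at 1.32 and -0.67 with the length trend removed. Without sh-JMJD1C 1 they were at 0.16 and -0.898 on scaled FPKM, where they offset each other less. Against the small subunits, POLR2B differed by -1.82 between sh-JMJD1C and control and POLR2A by -0.39, and both values include the difference of the small ones. On reads, where POLR2F is not counted, the contrast was -1.42, then -0.57 with the length trend removed and -0.26 with the GC trend removed as well. As a score over chosen genes, it was not tested.

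**Figure D4:**
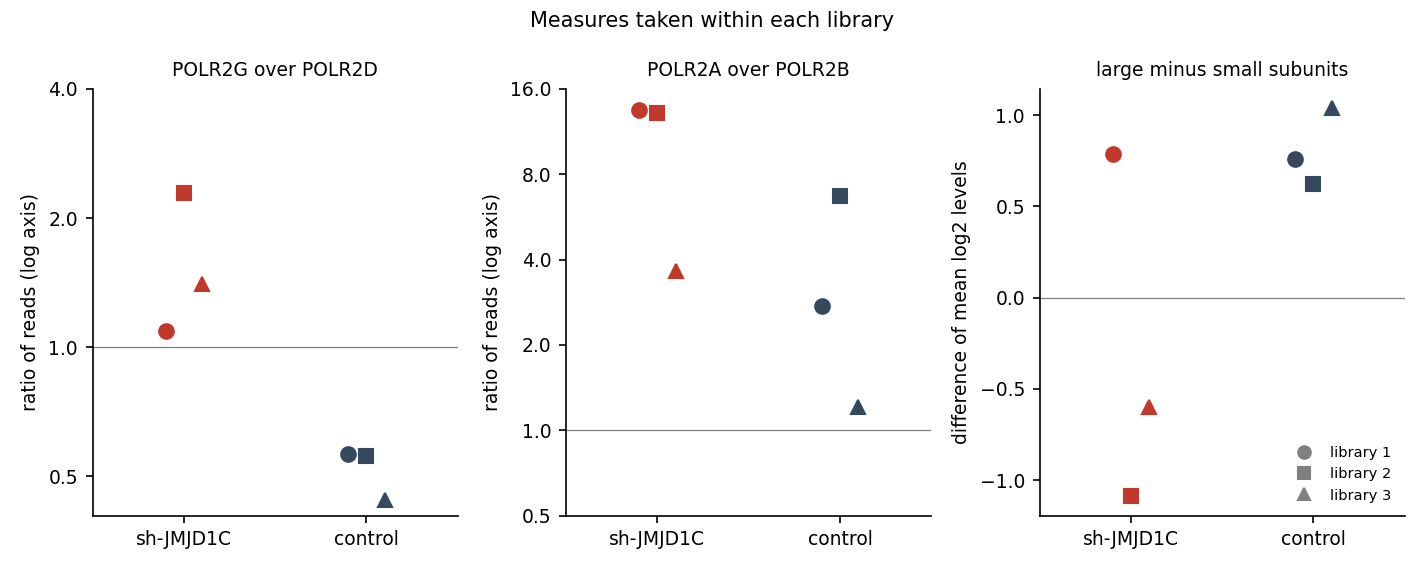
Measures taken within a library, namely POLR2G over POLR2D and POLR2A over POLR2B reads (log axes) and the difference of mean log2 levels between large and small subunits, per library, with sh-JMJD1C left and control right. The POLR2G over POLR2D ratio is above 1 in all sh-JMJD1C libraries and below 1 in all controls, while sh-JMJD1C 1 lies among the controls in the right panel.

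Levels were compared between subunits per length, as scaled RPM per kilobase of the longest annotated transcript. In sh-JMJD1C the order was POLR2L (247 ± 123), POLR2G (73.0 ± 32.6), POLR2A (63.0 ± 42.8), POLR2I (58.1 ± 19.7), POLR2C (53.3 ± 18.3), POLR2H (46.0 ± 17.9), POLR2E (43.0 ± 14.4), POLR2D (13.9 ± 1.43) and POLR2B (11.1 ± 4.54) (SD, n = 3). In control the order was POLR2L (67.5 ± 34.1), POLR2A (34.6 ± 13.6), POLR2I (22.1 ± 13.4), POLR2G (21.2 ± 3.26), POLR2C (20.8 ± 2.59), POLR2B (20.3 ± 8.13), POLR2H (18.6 ± 3.69), POLR2E (13.7 ± 4.22) and POLR2D (12.6 ± 1.06). Measured against the larger SD of each neighbouring pair, only POLR2L and POLR2G, and POLR2E and POLR2D, differed beyond their spread in sh-JMJD1C, and only POLR2H and POLR2E did in control. The level of POLR2B was beside that of POLR2C in control cells and at the end of the order in sh-JMJD1C cells.

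By root-mean-square difference of centred log2 levels over the 6 libraries, POLR2C and POLR2G were the most alike of the subunit genes (0.25), and POLR2B and POLR2L the least (1.67). Of 10168 other tested protein-coding genes, those most like POLR2A were MAP1S (0.041), HCFC1 (0.13) and TOB2 (0.16), and those most like POLR2B were ZNF326 (0.051), DDX46 (0.085) and MBD4 (0.087). These are descriptions over 6 libraries and carry no test.

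Other genes of the transcription machinery were read from 7 lists with 146 genes, all of which were in the files. In limma on scaled FPKM 0 of the 139 tested passed. An unadjusted p under 0.05 was found for 33 of them, beside 3658 of all 18383 genes. On reads 2 of 138 passed, or 1.45%, against 5.52% of all tested genes (3.71% higher). Of the 15 tested assembly and import factors 1 rose, RUVBL2, an ATPase of the chaperone complex that builds the polymerase, with 147, 411 and 230 scaled RPM in sh-JMJD1C 1 to 3 and 42.7, 69.1 and 29.3 in control 1 to 3 (log2 2.44, SE 0.48, adjusted p = 0.0226 in limma-voom). Of 26 elongation factors 1 rose, ELOB, the elongin B subunit, with 238, 1300 and 593 scaled RPM in sh-JMJD1C 1 to 3 and 64.0, 145 and 48.6 in control 1 to 3 (log2 fold change 2.86, SE 0.61, adjusted p = 0.0279). For both genes the groups did not overlap and both passed with the length trend removed (RUVBL2 adjusted p = 0.0347, ELOB adjusted p = 0.0463). Both calls on reads were lost without control 1, control 3, sh-JMJD1C 2 or sh-JMJD1C 3, where 0 genes of these lists passed in limma-voom. In the remaining lists 0 passed on reads: 17 tested subunits of polymerases I and III (median log2 fold change 0.28), 29 general transcription factors (-0.44), 17 kinases, phosphatases and binders of the C-terminal domain (-0.66), 30 Mediator subunits (0.06) and 4 further POLR2 genes (-0.42), beside -0.08 over all genes.

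Among those 4 further genes, POLR2J, the assembly partner of POLR2C, was chosen after its values were seen. It had 20.4, 105 and 85.7 scaled RPM in sh-JMJD1C 1 to 3 and 17.1, 14.6 and 12.2 in control 1 to 3. Its groups did not overlap, with sh-JMJD1C 1 close to the controls, and its log2 fold change on reads was 2.01 (SE 0.62, adjusted p = 0.0661 in limma-voom). POLR2J3, a near copy of POLR2J, had 17.6, 9.60 and 2.81 scaled RPM in sh-JMJD1C 1 to 3 and 12.8, 19.1 and 17.6 in control 1 to 3 (log2 fold change -1.03, adjusted p = 0.259). How reads were divided between these copies is uncertain. POLR2K, also among the 4, did not share the higher level of POLR2J on reads. It had 0.568, 12.3 and 40.03 scaled RPM in sh-JMJD1C 1 to 3 and 8.53, 4.47 and 10.5 in control 1 to 3. Its groups overlapped, and its log2 fold change was -0.19 on reads (SE 1.09, adjusted p = 0.919 in limma-voom) and 0.165 on scaled FPKM.

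**Figure D5:**
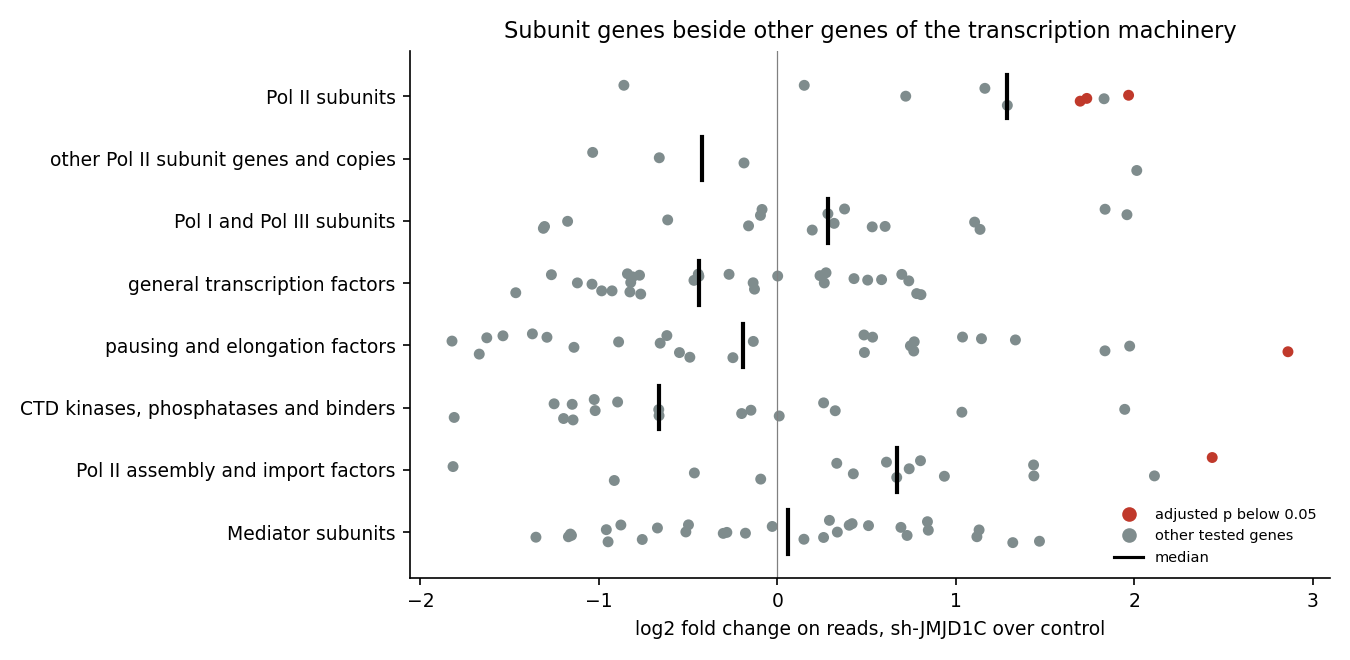
Log2 fold change on reads, sh-JMJD1C over control, of each tested gene in the subunit set and in the other lists of the transcription machinery, with genes past an adjusted p of 0.05 in red and list medians as black bars. Red points are POLR2E, POLR2G and POLR2L among the subunits, ELOB among elongation factors and RUVBL2 among assembly factors.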

How the data were processed

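Nuclear-enriched RNA of LN-229 cells was sequenced in 3 sh-JMJD1C and 3 control libraries. The authors deposited FPKM per gene and library, per the file headers for growing fractions of the reads; the last column, the full library, was used. The submitters' processing notes name Bowtie 0.12.2 and hg38, with no role. The counting tool, and whether it used strand, is not given in the sources used here.

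FPKM were divided by median-ratio factors (genes with a mean of at least 1 and above 0 in all libraries). Genes averaging 0.5 FPKM or more were fitted as log2(value + 0.5) on the group with limma 3.58.1 (trend, two-sided, Benjamini-Hochberg) in R 4.3.3; fold changes on that scale understate low genes. FPKM times summed transcript length (GENCODE 29, matched for 57836 of 58174 IDs) gave whole reads within 0.05 for 100% of the 118943 values under 1000 reads, with the annotated length for 93.9% of genes above 0 (all 10 subunit genes) and the smallest fitting length otherwise. The deposited FPKM are therefore low for genes with many transcripts. A length was accepted only where it gave whole reads, so the 100% largely follows from that choice. Genes with at least 60 reads in all were fitted with limma-voom, with median-ratio factors on reads (mean of at least 20), which also give scaled RPM. The fits were tested on simulated data. The limit for a gene at 0 is 3 reads, or 1.01 to 5.51 RPM by library. All 10 members were named, and list genes by passing 0.05, at most 3 per direction. Some items are not reported here. Members and lists were chosen with earlier results of these data known.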

Additional observations from a re-analysis of the deposited data

How the results depend on the processing

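Of the 9 subunit genes tested, 0 were called on scaled FPKM under every alternative of the FPKM fit but the restriction to protein-coding genes, which called 2. On reads it was 3, with 0 under library totals and with the length, or length and GC, trends removed, and 1 without both libraries numbered 1. Single removals on reads gave 0 to 6, with 6 without sh-JMJD1C 1, where 2334 of 11877 genes were called, and 4 without control 2, where 1288 were. Fold changes kept their sign in all settings except for POLR2D, at -0.21 for FPKM as deposited, -0.11 after quantile normalization and -0.25 with library totals on reads; the cause was not tested. Sizes also moved with length and GC trends removed: POLR2H was at 0.04, against 1.16 on reads.

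All genes called numbered 34 on scaled FPKM. The count was 84 with a pseudocount of 0.1, 0 with a pseudocount of 1, without a filter, without both libraries numbered 1 or with a replicate block, 79 for FPKM as deposited, 2 after quantile normalization, 911 over protein-coding genes and 0 to 692 over single removals. On reads it was 656, with library totals 1195, with the length trend removed 406, with the GC trend removed as well 801, without both libraries numbered 1 895, and 31 to 2334 over single removals (1288 without control 2, 97 without sh-JMJD1C 3). The pathway count was 0 on scaled FPKM, 6 over protein-coding genes, 0 to 8 over single removals, 2 on reads, 13 with library totals, 2 and 5 with the length and then the GC trend removed, 12 without both libraries numbered 1 and 0 to 33 over single removals on reads.

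The large against small contrast was -1.11, or -1.26 without POLR2F, and between -1.65 and -0.71 over single removals. On reads it was -0.26 with length and GC trends removed, -2.08 without both libraries numbered 1 and -2.04 to -0.94 over single removals. JMJD1C, not past the threshold at -1.82, passed over protein-coding genes with -1.82, on reads with -2.49, with library totals at -2.92, with the length trend removed at -1.75 and without both libraries numbered 1 at -2.83, but not with length and GC trends removed (-1.20, adjusted p = 0.0574 in limma-voom); single removals gave -2.05 to -1.53 on FPKM and -2.91 to -1.92 on reads (-2.81 without control 2). The median log2 fold change of all genes was -0.16 on scaled FPKM, -0.38 as deposited and -0.01 after quantile normalization, and -0.08 on reads and -0.52 with library totals, so POLR2D lay above the median in these fits except after quantile normalization. On reads 441 genes were called higher and 215 lower, and with library totals 311 higher and 884 lower.

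Libraries with the same number share only that number in the labels: deviations from group means correlated at 0.0089, 0.14 and 0.22 on FPKM and at 0.023, 0.37 and 0.48 on reads, and sh-JMJD1C 1 correlated best with control 2. With the replicate block on reads, 7 of 9 subunit genes, 4260 of 11877 genes and 49 of 138 pathway genes were called, with JMJD1C at -2.48. Of all genes called there, 2351 were higher and 1909 lower. Of the subunit genes called, 6 were higher and 1 lower, POLR2B (-0.89, adjusted p = 0.0306 in limma-voom). Settings on reads other than the plain, library-total and length-trend fits were chosen after seeing the data. Depth limits POLR2F (1 read) and control 1, where subunit genes above 0 had 13 to 113 reads.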
